A study of Homo sapiens with 3 samples.

Results

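Chromosome 20 was read gene by gene in the 5637 bladder cancer line and its gemcitabine-resistant derivative, because its RNA levels were shifted unevenly between the 2. Of the 728 genes listed on this chromosome, the 370 whose mean of both group means reached 10 normalised reads were kept, out of 14630 genes passing the same filter in the whole table. The other 358 were below it. The nearest gene outside was ASIP, an agouti-family signalling gene, followed by APCDD1L and SRMS, and the nearest inside were RP11-112L6.4, SNORA71A and KIAA1755. The chromosome was chosen by its ratios of resistant to parental RNA in these same data, so the ratios are given as a description and none was tested.

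The 5637 line is an established human urothelial carcinoma line. The parental group (5637P, genotype WT) was compared with the resistant group (5637GR, genotype Gemcitabine Resistant), and all libraries came from untreated cells, so that neither group was exposed to the drug at harvest. The study's methods state that resistance was made by continuous gemcitabine exposure, whereas the labels call the treatment acute. Each library came from a clone grown from a single cell, 3 clones per group in the study's design, so a clone's own history cannot be told apart from resistance. Libraries of 3 clones had a label and are used one by one here, 1 parental and 2 resistant. The group means are the authors' values over their clones, including clones not used one by one here, and carry no error. Statements on resistant clones by library cover only the 2 used.

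Gene dosage is the background to any such map. The RNA level of many genes tends to follow the number of DNA copies a cell carries, and carcinomas often gain or lose whole arms or large pieces of a chromosome. The long arm of chromosome 20 is a frequent gain in carcinomas, with AURKA, ZNF217 and TPX2 among the genes discussed there. DNA was not measured in these files, and a change in copy number cannot be told apart here from any other change that spans neighbouring genes.

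The total count on genes was 14475531 reads in the parental library, 15836788 in resistant library 1 and 17461941 in resistant library 2. Chromosome 20 took 2.94% of these reads in the parental library, 2.64% in resistant library 1 and 2.67% in resistant library 2. The cells carried urothelial and epithelial markers in all 3 libraries. KRT19, a simple epithelial keratin, stood at 4321 CPM (reads scaled to a common library total, with TMM factors) in the parental library, 3596 in resistant library 1 and 4761 in resistant library 2. EPCAM, an epithelial adhesion molecule, stood at 286, 338 and 290 CPM in the same order, and CDH1, the epithelial cadherin, at 341, 398 and 319. KRT5, the basal keratin, was lower in both resistant libraries, at 273 CPM in the parental library against 9.80 and 13.8. KRT7, KRT18, GATA3 and TP63 were also lower in both, KRT18 at 281, 248 and 179 CPM, KRT7 at 1994, 1049 and 863 CPM, GATA3 at 96.5, 64.1 and 61.2 and TP63 at 103, 65.2 and 73.4. The part of these markers in the results was not tested. Of the blood markers, PTPRC held 4, 3 and 2 reads and CD3E 1, 3 and 0. Of the fibroblast markers, COL3A1 held 0, 0 and 2 reads while COL1A1 stood at 113, 97.0 and 60.9 CPM, and the part of these genes in the results was not tested.

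Of 7 genes that departed from their surroundings, the promoter table matched 2, CDH26 and NTSR1. Their upstream sequences are shown because only these 2 were matched, and they were not chosen for a comparison. Both lie after the point where the chromosome turns from lower to higher. They departed in opposite directions, CDH26 downwards and NTSR1 upwards. Each is the 250 bases before the gene's start on the plus strand, from RefSeq on build GRCh38.p14, at chr20:59958173-59958422 for CDH26 and chr20:62708586-62708835 for NTSR1. Capitals mark the GC box, GGGCGG or its reverse complement CCGCCC.
CDH26: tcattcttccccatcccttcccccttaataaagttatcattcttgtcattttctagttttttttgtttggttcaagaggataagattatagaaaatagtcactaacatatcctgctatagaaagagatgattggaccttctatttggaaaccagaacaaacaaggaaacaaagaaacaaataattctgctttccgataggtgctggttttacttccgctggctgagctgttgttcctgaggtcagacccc
NTSR1: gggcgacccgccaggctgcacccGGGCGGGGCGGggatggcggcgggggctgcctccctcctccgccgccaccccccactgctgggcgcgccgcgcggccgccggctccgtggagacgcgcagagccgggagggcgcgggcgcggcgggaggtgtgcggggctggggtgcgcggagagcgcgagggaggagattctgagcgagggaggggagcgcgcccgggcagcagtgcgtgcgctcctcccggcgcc
The CDH26 sequence had 38% GC with 2 CpG dinucleotides and no GC box. The NTSR1 sequence had 82% GC with 38 CpG dinucleotides and 2 GC boxes that overlap each other. Of 27305 promoter sequences of the same length, 42.3% held a GC box on either strand, 3.16% held at least as many CpG as NTSR1 and 84.6% at least as many as CDH26. The TATA box, searched as TATAAA or TTTATA, was in neither of the 2 sequences and in 11.1% of all. Such letters are a description of the sequence and not a site of any factor.

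Of the 370 genes, 273 had a lower and 97 a higher group mean in the resistant clones, that is 73.8% lower, where 48.6% of all genes were lower and 51.4% higher. The median log2 ratio of the group means, each with 1 added, was -0.28 on chromosome 20 and 0.01 over all genes. Against the single parental library, 250 genes were lower in resistant library 1 (all genes 50.4%), with a median of -0.22 where all genes stood at -0.01. In resistant library 2, 255 were lower (all genes 51.6%), with a median of -0.27 where all genes stood at -0.02. These library ratios use CPM with 1 added and share the parental library, and the group means contain all 3 libraries.

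The shift was not even along the chromosome. Positions are those of the deposited table on build hg19. The single split that best described the group-mean ratios, by the lowest sum of absolute distances to the median on either side, lay between ZFP64, a zinc finger gene ending at position 50820847, and TSHZ2, a teashirt-family zinc finger gene starting at 51588946. This point is called the switch. The 287 genes before it had a median of -0.35, and 250 of them (87.1%) were lower in the resistant group. The 83 genes after it had a median of 0.14, and 23 of them (27.7%) were lower while 60 were higher. The split lowered the summed distance by 15.1%. Since it was placed on these values, the contrast between its sides is no test. At the same point the medians were -0.34 before and 0.15 after in resistant library 1, and -0.34 before and 0.21 after in resistant library 2.

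**Figure D1:**
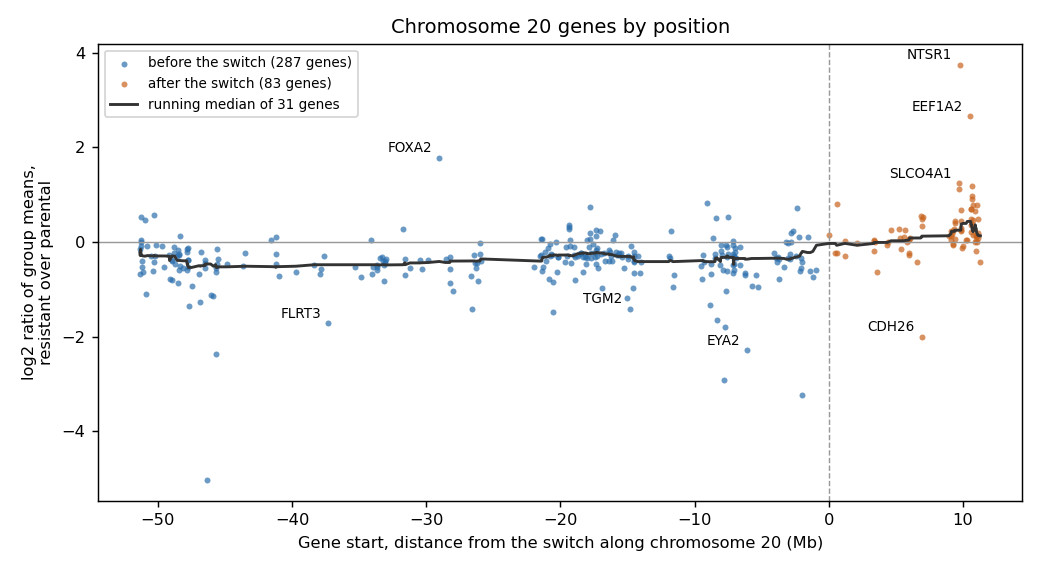
Resistant over parental log2 ratio of the group means given by the authors (1 added to each) on the vertical axis against the distance of each gene's start from the switch in Mb on the horizontal axis, for 370 genes. Blue points are the 287 genes before the switch, orange points the 83 after it, and the line is a running median of 31 genes, which stays below 0 up to the distal part and does not return there after PMEPA1.

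A running median over 31 neighbouring genes first stood above 0 at PMEPA1, an inhibitor of TGF-beta signalling starting at position 56223448. Counting PMEPA1, 69 genes remain to the end of the chromosome, and over them the running median did not come back to 0. PMEPA1 itself differed between the clones, at 582 CPM in the parental library, 321 in resistant library 1 and 700 in resistant library 2. The group-mean split and the running median put the turn at 51.6 and 56.2 Mb.

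The 4 genes on either side with a mean of at least 50 normalised reads show the values at the switch. ATP9A, a phospholipid-transporting ATPase, stood at 166 CPM in the parental library, 89.8 in resistant library 1 and 83.8 in resistant library 2. Both resistant libraries were below the parental one, and the group-mean ratio of ATP9A was -0.62. The ratios of its neighbours before the switch were -0.73 for SALL4, an embryonic zinc finger factor, -0.58 for ZFP64 and 0.11 for NFATC2, a calcium-responsive transcription factor. After the switch, TSHZ2 stood at 12.3, 5.94 and 13.9 CPM, with the parental library between both resistant libraries. ZNF217, a zinc finger gene known from amplifications in carcinomas, stood at 135, 123 and 116 CPM, a group-mean ratio of -0.22. CYP24A1, which inactivates vitamin D, had -0.30 and PFDN4, a prefoldin subunit, 0.03. These genes right after the switch were spread around 0.

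Further splits gave steps whose edges moved with the number of splits. With 2 splits, the higher stretch began at RBM38 (start 55966463), with a median of 0.22 over 70 genes, and the summed distance was lowered by 17.0%. With 3 splits, the 111 genes from C20orf96 to NINL had a median of -0.44 (101 lower). The 176 genes from NANP to ZFP64 had -0.30 (149 lower), the 27 genes from TSHZ2 to PHACTR3 had -0.01 (14 lower) and the 56 genes from SYCP2 to PCMTD2 had 0.26 (9 lower). These 4 stretches lowered the summed distance by 18.6%. With 1 more split, the edge near the switch moved to PFDN4 (start 52824386), the 25 genes from CABLES2 to ARFRP1 had a median of 0.45 and the last 16, ZGPAT to PCMTD2, 0.13, and the summed distance was 19.7% lower than with none. The number of steps is a choice and not a measurement.

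The longest interval with no member, from ZNF337 (end 25677477) to FRG1B (start 29611857), spans the centromere. The 114 genes before it had a median of -0.44 and 104 of them (91.2%) were lower. The 173 genes between it and the switch had a median of -0.30 and 146 of them (84.4%) were lower. In resistant library 1 these medians were -0.44 and -0.28, and in resistant library 2 they were -0.38 and -0.33. The distance between both stretches was wider in library 1 than in library 2.

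In windows of 2 Mb by gene start, 31 windows held a member and 22 held at least 6. Of those 22, 18 had a median below 0 in the group means, 16 in resistant library 1 and 18 in resistant library 2. Lowest was the stretch from 4 to 6 Mb, where all 14 genes were lower and the median was -0.65 (library medians -0.58 and -0.68). PCNA, the sliding clamp of DNA replication, lies there. It was chosen after its values were seen, and it stood at 204 CPM in the parental library, 149 in resistant library 1 and 131 in resistant library 2. All genes were also lower in the windows from 24 to 26 Mb (10 genes, median -0.44), 36 to 38 Mb (17 genes, -0.39) and 46 to 48 Mb (8 genes, -0.40). The window at the tip of the short arm, from 0 to 2 Mb, was nearer to 0, with a median of -0.15 over 19 genes.

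TRIB3, a stress-induced pseudokinase in that first window and chosen after its values were seen, held 102 parental reads against 295 and 336 resistant ones, or 7.26, 18.1 and 19.3 CPM. Its group-mean ratio was 0.53. It was thus higher in both resistant libraries while the next window, from 2 to 4 Mb, held 25 lower genes out of 26, with a median of -0.39.

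On the other side, the window from 58 to 60 Mb had the highest median in the group means, 0.41 over 6 genes, and in library 2, 0.49, but not in library 1, where it was 0.20. From 60 to 62 Mb, 20 of 24 genes were higher with a median of 0.22 (0.28 in library 1), and from 62 to 64 Mb, 23 of 27 with a median of 0.36. SYCP2, a synaptonemal complex gene at the start of this stretch, held 134 reads in the parental library, 233 in resistant library 1 and 280 in resistant library 2. LAMA5, a laminin chain of basement membranes and chosen after its values were seen, stood at 965 CPM in the parental library, 1273 in resistant library 1 and 1871 in resistant library 2. PTK6, an epithelial tyrosine kinase and likewise chosen after its values were seen, stood at 32.5, 44.2 and 100 CPM. For SYCP2, LAMA5 and PTK6 the parental library was the lowest of the 3.

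**Figure D2:**
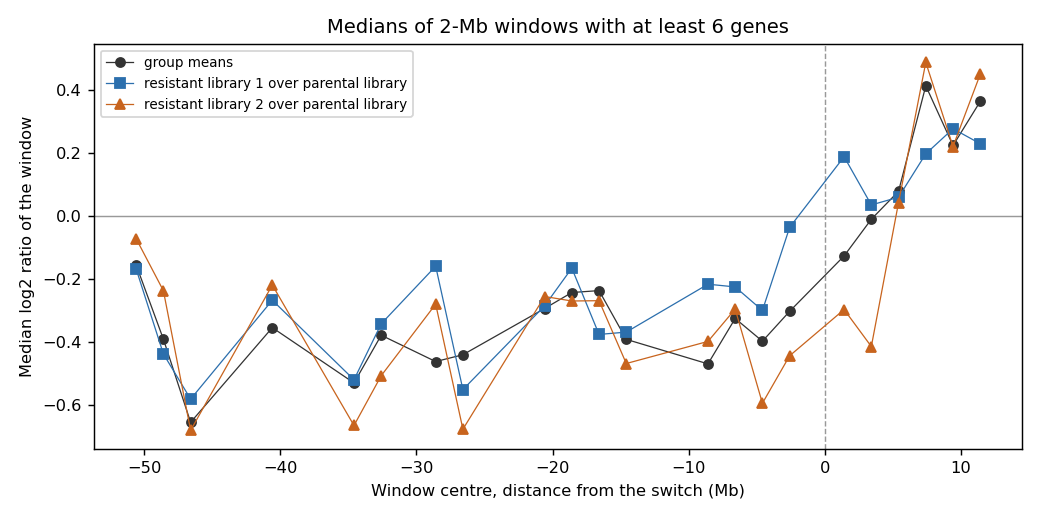
Median log2 ratio of each 2-Mb window with at least 6 genes (vertical axis) against the distance of the window's centre from the switch in Mb (horizontal axis), for the group means and for each resistant library over the parental library. The windows from 56 Mb onward lie above 0 in all 3 measures. Just after the switch the libraries part, with 0.19 in library 1 and -0.30 in library 2 from 52 to 54 Mb.

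The best single split lay at a different place in each resistant library. The same split on single libraries lay at 52169309 in resistant library 1, with medians of -0.34 over 289 genes and 0.17 over 81. In resistant library 2 it lay at 58438618, the start of SYCP2, with -0.34 over 314 genes and 0.40 over 56. The 25 genes between these points, ending at PHACTR3, had a median of 0.07 in library 1 and -0.34 in library 2. Between the libraries themselves, which needs no parental value, 20 of the 25 were lower in library 2 and the median difference was -0.31 on the log2 scale. Over all genes, 51.4% were lower in library 2. The stretch was marked out by these same ratios, so its count is a description. The splits lowered the summed distance by 11.8% in library 1 and 10.5% in library 2. Under other settings the group-mean split alone lay from 48.8 to 58.6 Mb. Whether the place of the turn differs between the clones was not tested.

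Genes inside this stretch, chosen after their values were seen, show both directions. AURKA, the mitotic Aurora A kinase, stood at 91.3 CPM in the parental library, 113 in resistant library 1 and 71.0 in resistant library 2. The parental value lay between those of the resistant clones. RBM38, an RNA-binding protein, followed the same order at 55.7, 58.7 and 41.5 CPM. GNAS, the stimulatory G protein alpha subunit and the most abundant of its signalling list, stood at 1618, 1694 and 1281 CPM, with a group-mean ratio of -0.01. FAM210B went the other way, at 69.6, 54.1 and 81.8 CPM.

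The window medians of the libraries also differed around the switch. Before it, from 48 to 50 Mb, 17 genes had a group-mean median of -0.30, with -0.04 in library 1 and -0.44 in library 2. After it, from 54 to 56 Mb, 7 genes had 0.04 in library 1 and -0.41 in library 2. From 56 to 58 Mb, 12 genes had medians of 0.06 and 0.04, while the median difference of library 2 from library 1 gene by gene was -0.18.

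Of the 370 genes, 21 had a group mean at least 2-fold lower in the resistant clones (5.68%, beside 3.15% of all genes) and 6 at least 2-fold higher (1.62%, beside 3.21%). Of the 21 lower genes 20 lay before the switch, and of the 6 higher genes 5 lay after it. Of all 370 members, 287 lay before it and 83 after it, and the switch was placed on these same ratios. In resistant library 1, 23 genes were 2-fold lower (all genes 4.41%) and 7 2-fold higher (all genes 3.26%). In resistant library 2, 28 were 2-fold lower (all genes 5.01%) and 13 2-fold higher (all genes 6.25%). Without the 61 genes that passed 2-fold in the group means or in either library, the median of the remaining genes before the switch was -0.31.

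Genes were next set against their own window. A departure is the difference between a gene's ratio and the median of the other genes in its 2-Mb window, and it was available for 344 members, with 26 in windows of too few genes. At least 1 on the log2 scale below the window lay 10 genes (2.91%, beside 2.34% of all genes) and above it 7 (2.03%, beside 2.89%). Both shares were near those of all genes. The named genes also departed by at least 0.5 the same way in both libraries and had a mean of at least 50 normalised reads. They were CDH26, EYA2 and TGM2 below, and NTSR1, EEF1A2, FOXA2 and SLCO4A1 above.

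CDH26, a cadherin of epithelial cells (position 58533471 to 58609066, plus strand), had the lowest group-mean ratio after the switch. It held 229 reads in the parental library, 55 in resistant library 1 and 63 in resistant library 2, or 16.3, 3.37 and 3.61 CPM. Both resistant libraries used here were far below the parental one and close to each other. The ratio to the parental library was 0.207 in library 1 (95% interval 0.151 to 0.278) and 0.221 in library 2 (0.165 to 0.294), by exact binomial intervals that cover counting error only. The authors' group means were 46.8 resistant and 190.0 parental, a log2 ratio 2.49 below its window.

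EYA2, a transcriptional coactivator of the eyes absent family (45523263 to 45817492, plus strand), held 288 reads in the parental library, 0 in resistant library 1 and 2 in resistant library 2. The ratio to the parental library had an upper 95% limit of 0.0111 in library 1 and was 0.00559 (0.000674 to 0.0204) in library 2. The authors' group means were 31.1 resistant and 156 parental, a log2 ratio of -2.29. The resistant group mean of EYA2 lay above both resistant libraries used here. As a fold the group-mean ratio was 0.204, far above both library ratios. The near absence of EYA2 reads thus describes these 2 libraries and not the resistant group. EYA2 overlaps the listed gene RP5-890O15.3, and reads of overlapping genes cannot be told apart where the counting was not stated to use strand.

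TGM2, the tissue transglutaminase that cross-links proteins (36756863 to 36794980, minus strand), held 8837 reads in the parental library, 5258 in resistant library 1 and 4850 in resistant library 2, or 629, 322 and 278 CPM. The ratio was 0.512 (0.495 to 0.530) in library 1 and 0.442 (0.426 to 0.457) in library 2. Its group-mean log2 ratio was -1.41, which was 1.04 below a window in which all 17 genes were lower.

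NTSR1, the G protein-coupled receptor for neurotensin (61340189 to 61394123, plus strand), had the highest ratio on the chromosome in the group means and in library 2, whereas in library 1 EEF1A2 was higher. It held 96 reads in the parental library, 1816 in resistant library 1 and 5514 in resistant library 2, or 6.83, 111 and 316 CPM. Both resistant libraries used here were above the parental one, and library 2 was above library 1. The ratio was 16.3 (13.2 to 20.2) in library 1 and 46.2 (37.8 to 57.2) in library 2. The group-mean log2 ratio was 3.75, which was 3.52 above its window. As a fold the group-mean ratio was 13.4, below both library ratios. NTSR1 overlaps the listed antisense gene RP11-93B14.4.

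SLCO4A1, an organic anion transporter next to NTSR1 (61273797 to 61317137, plus strand), held 1030, 3440 and 6441 reads, or 73.3, 211 and 369 CPM. The order of the 3 libraries was that of NTSR1. The ratio was 2.87 (2.68 to 3.08) in library 1 and 5.03 (4.71 to 5.38) in library 2, and the group-mean log2 ratio was 1.24. As a fold the group-mean ratio was 2.36, below both library ratios. Its overlapping antisense gene RP11-93B14.5 had a group-mean log2 ratio of 1.13, and the counts of this pair are uncertain for the same reason as above.

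EEF1A2, the translation elongation factor isoform of muscle and neurons (62119366 to 62130505, minus strand), held 17 reads in the parental library, 859 in resistant library 1 and 144 in resistant library 2, or 1.21, 52.6 and 8.25 CPM. Here library 1 was the higher of both resistant libraries. The ratio was 43.5 (27.0 to 75) in library 1 and 6.82 (4.11 to 12.0) in library 2, and the group-mean log2 ratio was 2.66. As a fold the group-mean ratio was 6.33, near that of library 2 and far below that of library 1.

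FOXA2, a forkhead factor of endoderm (22561643 to 22566093, minus strand), was 1 of 37 genes before the switch with a higher resistant group mean. It held 43, 161 and 407 reads, or 3.06, 9.86 and 23.3 CPM. Both resistant libraries used here were above the parental one. The other 5 genes of its window were lower in the group means, although one of them, THBD or thrombomodulin, named after its values were seen, stood at 77.9, 82.9 and 132 CPM. The ratio was 3.22 (2.29 to 4.62) in library 1 and 7.62 (5.55 to 10.7) in library 2. The group-mean log2 ratio was 1.78, which was 2.35 above its window. As a fold the group-mean ratio was 3.44, between the library ratios.

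**Figure D3:**
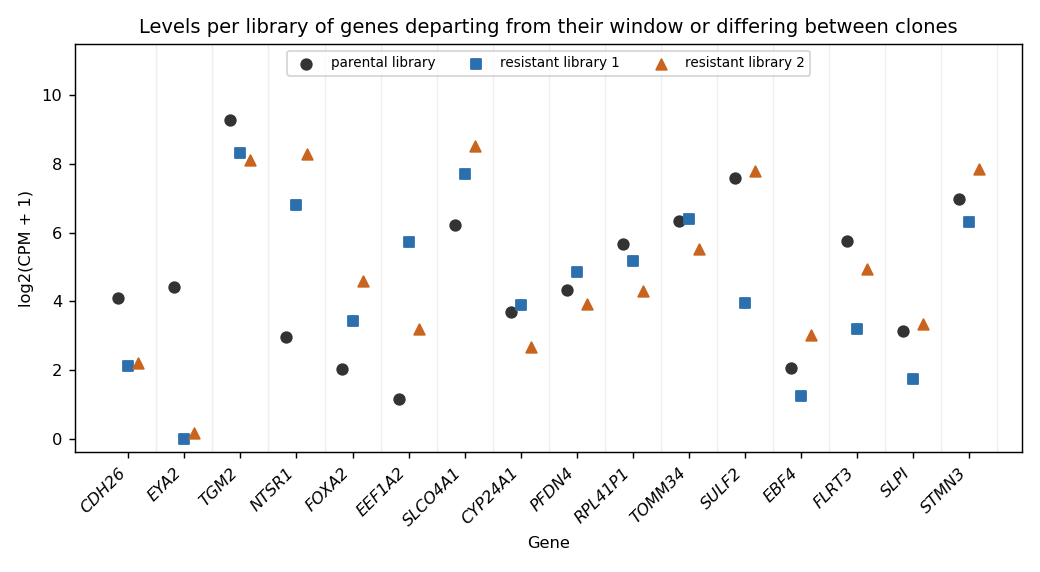
Level of 16 genes as log2(CPM + 1) on the vertical axis, with 1 point per library (circle, parental library; square, resistant library 1; triangle, resistant library 2). The first 7 genes depart from their window and both resistant points lie on the same side of the parental one, whereas SULF2 and STMN3 have the parental point between the resistant ones.

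Other genes past 2-fold in the group means are named here after their values were seen. PROKR2, a prokineticin receptor, held 13 reads in the parental library and 0 in both resistant libraries, with upper 95% limits of the ratio of 0.282 and 0.264, and its resistant group mean is listed at 0. KCNG1, a modulatory subunit of potassium channels, held 62, 5 and 8 reads. CHGB, the secretory granule protein chromogranin B, held 40, 15 and 4. RASSF2, a Ras-associating tumour suppressor, held 442, 182 and 127 reads, and RNF24, a RING finger gene, held 304, 162 and 142. In these 5 genes both resistant libraries were below the parental one. PI3, SLPI, ADA and VSTM2L, also 2-fold lower in the group means, stood above the parental library in resistant library 2, but the 95% interval of each of these 4 ratios included 1.

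The resistant clones also differed from each other at single genes. Of the 370 genes, 19 were at least 2-fold apart between the resistant libraries (5.14%, beside 5.65% of all genes). Of the 287 genes before the switch 11 (3.83%) and of the 83 after it 8 (9.64%) were this far apart.

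SULF2, the extracellular sulfatase that edits heparan sulfate (46285092 to 46415360, minus strand), was the clearest of them. It held 2711 reads in the parental library, 237 in resistant library 1 and 3869 in resistant library 2, or 193, 14.5 and 222 CPM. Library 1 alone was low. Library 2 was 15.3 times library 1 (13.4 to 17.5). The authors' group-mean ratio of SULF2, -0.95, lay between the 2 library ratios of -3.64 and 0.20. SULF2 overlaps NCOA3 and CTD-2653D5.1 in the table.

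FLRT3, an adhesion protein of the leucine-rich repeat family, stood at 53.3 CPM in the parental library, 8.15 in resistant library 1 and 30.0 in resistant library 2. SLPI, a secreted protease inhibitor, stood at 7.83, 2.33 and 9.22 CPM, and EBF4, an early B-cell factor family member, at 3.13, 1.35 and 7.05. STMN3, a stathmin family member after the switch, stood at 125, 78.8 and 233 CPM. For SULF2, SLPI, EBF4 and STMN3 resistant library 1 was the lowest of the 3 and resistant library 2 the highest.

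In the opposite direction, TOMM34, a cochaperone of mitochondrial protein import, stood at 79.4, 83.3 and 45.4 CPM. CYP24A1 stood at 12.0, 13.8 and 5.33 CPM and PFDN4 at 19.0, 28.2 and 14.3. The pseudogene RPL41P1, whose reads may come from its near-identical parent gene, held 703, 570 and 325 reads. Resistant library 2 had the lowest CPM or count of the 3 for each of these 4, and EEF1A2 was also lower in library 2 than in library 1. These genes were picked among members with a mean of at least 50. BFSP1, with a mean of 39.7, held 38, 81 and 29 reads, a log2 difference of -1.16 between library 2 and library 1.

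The genes were then read by what they do, from 8 lists that hold 174 of the 370 members. In each list with members on both sides of the switch the median was lower before it than after it. The switch was placed on these same ratios, so this is no separate result. After the switch the metabolic list held only 2 members and the imprinted list 1. Unless a library is named, ratios and counts are those of the group means. Beside the lists, 87.1% of all members before the switch and 27.7% after it were lower.

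The replication, mitosis and repair list had 28 members, of which 23 were lower and 5 higher, with a median of -0.31 (-0.31 in library 1 and -0.58 in library 2) and none past 2-fold. Its 23 members before the switch had a median of -0.41, and its 5 members after it 0.03. TPX2, the activator of Aurora A on the spindle, stood at 339 CPM in the parental library, 221 in resistant library 1 and 159 in resistant library 2. MYBL2, a cell-cycle transcription factor, stood at 298, 196 and 145 CPM. The libraries stood in the same order for both genes, with group-mean ratios of -0.54 and -0.41. CSE1L, a nuclear export receptor, had -0.35 and TOP1, the DNA topoisomerase, -0.30. E2F1, a cell-cycle factor before the switch that was chosen after its values were seen, stood at 83.7, 75.8 and 123 CPM, so that only library 2 was above the parental one.

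The list of RNA processing, protein synthesis and turnover had 30 members, 27 lower and 3 higher, with a median of -0.29 (-0.24 and -0.38 in the libraries). All 23 members before the switch were lower, with a median of -0.30 where all members before it stood at -0.35. They include RALY, an RNA-binding protein, at -0.27 and RPN2, a subunit of the oligosaccharyltransferase, at -0.26. The 7 after the switch had a median of -0.01, with the proteasome subunit PSMA7 at 0.04 and the ribosomal protein RPS21 at 0.07.

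The metabolic enzymes and transporters list had 33 members, 29 lower and 4 higher, with a median of -0.39 (-0.39 and -0.47 in the libraries), and 31 of them lay before the switch. B4GALT5, a galactosyltransferase, had -0.53, PYGB, the brain form of glycogen phosphorylase, -0.44, and AHCY, which cleaves S-adenosylhomocysteine, -0.29. ATP5E, a subunit of the ATP synthase after the switch, had 0.05. ITPA, which clears inosine triphosphate, stood at 61.4 CPM in the parental library, 54.6 in resistant library 1 and 50.5 in resistant library 2, a group-mean ratio of -0.27. SAMHD1, which hydrolyses deoxynucleoside triphosphates, stood at 48.3, 63.3 and 54.1 CPM, both resistant libraries being above the parental one, and its group-mean ratio was 0.04. ADA, adenosine deaminase, held 11, 3 and 17 reads and was too shallow to place.

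The transcription and chromatin list had 33 members, 23 lower and 10 higher, with a median of -0.33 (-0.35 and -0.32 in the libraries), from -0.40 over the 27 before the switch to 0.09 over the 6 after it. ID1, an inhibitor of differentiation factors, stood at 410, 202 and 150 CPM, and both resistant libraries were below the parental one. ASXL1, a Polycomb-associated chromatin regulator, had -0.27 and ADNP, a homeobox gene, -0.34. OVOL2, a zinc finger factor of epithelial cells, stood at 19.7, 11.3 and 12.5 CPM.

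The ligands, receptors and signalling list had 25 members, 18 lower and 7 higher, with a median of -0.30. In the libraries its medians were nearer to 0, at -0.11 and -0.15. Its 21 members before the switch had a median of -0.35 and its 4 after it 0.59, the latter including NTSR1. JAG1, a Notch ligand, stood at 485 CPM in the parental library, 200 in resistant library 1 and 437 in resistant library 2, and its group-mean ratio was -0.72. Library 1 was well below the other 2. PLCG1, a phospholipase downstream of receptor tyrosine kinases, had -0.35.

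The membrane traffic list had 21 members, 14 lower and 7 higher, with a median of -0.19 (-0.12 and -0.20 in the libraries), from -0.38 over 14 before the switch to 0.09 over 7 after it. YWHAB, a 14-3-3 protein, had -0.48 and ERGIC3, a protein of the early secretory pathway, -0.33 before it. DNAJC5, a chaperone of synaptic vesicles, had 0.15 and ARFGAP1, a regulator of ARF1, 0.05 after it.

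The list of secreted protease inhibitors and secreted host-defence proteins kept only 4 of its 26 genes on the chromosome, since most held too few reads. Of these, 3 were lower and 1 higher. CST3, the protease inhibitor cystatin C, stood at 147 CPM in the parental library, 61.5 in resistant library 1 and 70.9 in resistant library 2, and both resistant libraries were below the parental one. WFDC2, a whey acidic protein family member, stood at 50.4, 59.2 and 102 CPM. PI3, the elastase inhibitor elafin, held 2, 0 and 11 reads, whereas the authors' group means were 3.46 resistant and 32.5 parental. The list's median was -1.42 in the group means, -0.72 in library 1 and 0.36 in library 2. In library 2 the ratios of PI3 (0.966 to 41.1) and SLPI (0.919 to 1.52) had intervals that include 1.

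The imprinted genes had 4 members, all lower in the group means, with a median of -0.27. They were GNAS at -0.01, BLCAP at -0.23, the neuronal gene NNAT at -0.31 and L3MBTL1, a chromatin reader, at -0.78. In library 1 the median of the 4 was 0.03 and in library 2 it was -0.28.

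**Figure D4:**
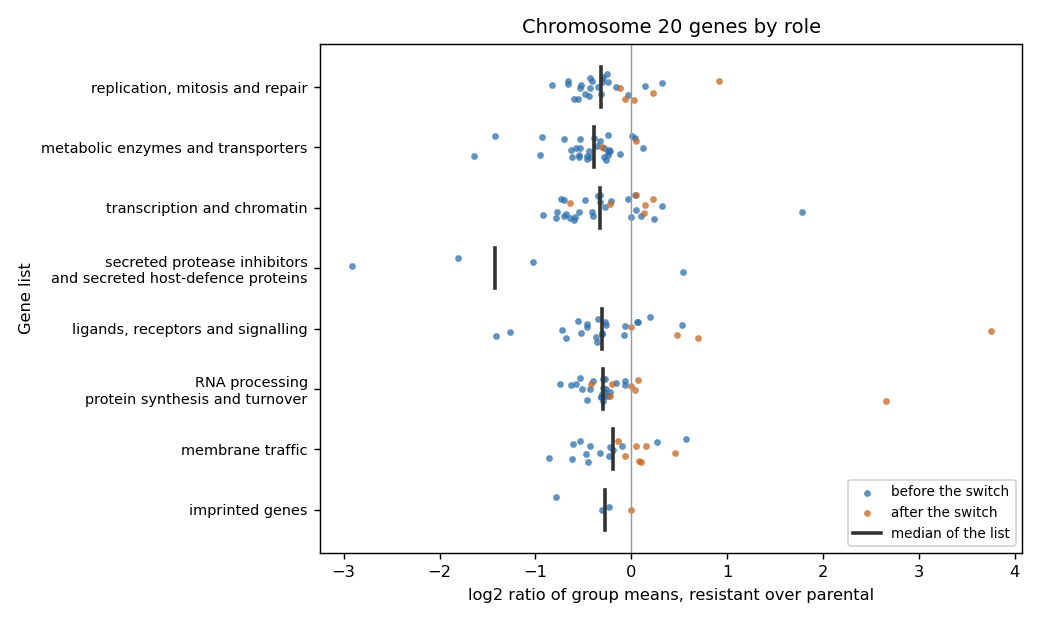
Log2 ratio of group means, resistant over parental, for the members of each of 8 gene lists, with genes before the switch and genes after it in separate colours and the median of each list marked. In the RNA processing list all 23 genes before the switch lie below 0, and EEF1A2 and NTSR1 are the far points above 2.

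Several features that the choice of genes did not use were set beside the shift. The genes before the switch had a median transcript GC content of 51.4% and those after it 56.0%, with 48.5% over all genes. Genes of other chromosomes within the range of the middle part of the distal genes, 47.9% to 62.4% GC, had a median ratio of 0.04 (5975 genes). Within that same range the 172 chromosome 20 genes before the switch stood at -0.32 and the 40 after it at 0.12. Median gene length was 2956 bases before the switch and 3044 after it. The 198 genes on the plus strand and the 172 on the minus strand each had a median of -0.28. After the switch they parted, with 0.11 over 50 genes on the plus strand and 0.26 over 33 on the minus strand.

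Among genes before the switch with a mean above the median of their side, 136 of 144 (94.4%) were lower, and among the shallower ones 114 of 143 were. After the switch the median was 0.10 in the deeper 42 genes and 0.28 in the shallower 41. In at least 1 of the 3 libraries, 17 members held fewer than 10 reads. Fewer cells carrying a gene's RNA and less RNA per cell cannot be told apart in these bulk libraries.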

How the data were processed

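The authors sequenced poly(A) RNA from clones and processed the reads. Submitters' processing notes name CASAVA 1.8 and build hg19. The aligner, the counter, the annotation and any use of strand are not given in the sources used here, and 169 of 370 members overlap another listed gene. The deposited read count per gene and library is not normalized. The deposited FPKM equals the count per total count and gene length. The deposited group signal is the authors' mean of normalised counts. The columns with the authors' own fold changes and p-values hold their comparison and were not used, nor were 6 columns of libraries without a label here.

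Library values are CPM scaled by TMM (edgeR 4.0.16, R 4.3.3), with totals of 14475531, 15836788 and 17461941 reads and factors of 0.970, 1.03 and 1.00. A count of 0 allows up to 3 reads, or 0.214, 0.184 and 0.172 CPM. The pseudocount was 1, the filter a mean of both group means of at least 10. Splits minimised absolute distances to the median with at least 20 genes on either side (15 per stretch for several splits), in Python 3.11.15 with numpy 2.4.6 and pandas 2.3.3. Intervals were exact binomial, 95% (scipy 1.17.1). The steps were tested on simulated data. No test was run, because 1 parental library has no spread and the chromosome was chosen from this contrast.

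The members, lists and rules were chosen with earlier results of these data known. Named genes were up to 8 per direction departing from their window by at least 1 (0.5 in both libraries, mean at least 50). Among members with a mean of at least 50, the 4 nearest the switch on either side were also named. With the same limit, the 5 differing most between resistant libraries in each direction were named. The rest were the 4 most abundant of each list, 3 on either side of the filter, and ITPA, ADA, SAMHD1, OVOL2 and BLCAP. Lists covered replication, mitosis and repair, metabolic enzymes and transporters, transcription and chromatin, secreted protease inhibitors and host-defence proteins, ligands, receptors and signalling, RNA processing, protein synthesis and turnover, membrane traffic, and imprinted genes. Alternatives changed the filter, the pseudocount, the library scaling (total count, DESeq2 1.42.0 size factors, FPKM), the split criterion and the libraries. RefSeq promoter entries matched 278 of 370 members (75.1%), too few for a comparison of promoters between genes.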

Additional observations from a re-analysis of the deposited data

How the results depend on the processing

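Of 120 values under alternatives, 84 stayed within a tolerance, 36 moved beyond it and 0 reversed. Only medians could be labelled reversed, since counts and positions carry no sign. The group-mean medians before and after the switch were taken around a split placed anew for each setting, so their signs are no check. For counts the tolerance was 1.5 times. For the group-mean medians it was the 95% order-statistic interval over genes (-0.31 to -0.24 for the chromosome, -0.40 to -0.32 before and 0.08 to 0.23 after the switch). For the library values it was the SD between the 2 resistant libraries (0.036 for the median, 0.0025 before and 0.043 after the switch, 4.43 Mb for either switch position). Without a filter on low values, 430 genes were lower and 298 higher, 44 were 2-fold lower and 30 2-fold higher, the median was -0.14, the switch lay at 56.1 Mb with -0.26 before and 0.26 after it, and 29 genes departed below and 49 above their window. With a mean of at least 50, 12 genes were 2-fold lower and 5 departed below. With a pseudocount of 10, 4 departed above. A least-squares split lay at 58.6 Mb, with 0.24 after it. Chosen after seeing the data were 3 alternatives. Of these, the 201 genes overlapping no other listed gene gave 153 lower, 48 higher, 13 2-fold lower, 2 2-fold higher, 4 departing below and 2 above, a library switch at 52.8 Mb and a library median before the switch of -0.38, all over fewer genes. Leaving out genes changed 2-fold or more gave -0.31 before the switch, and centring on genes of like GC and length kept the switch at 51.6 Mb.

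The mean of both library ratios had a median of -0.26, a switch at 58.4 Mb, and -0.34 before and 0.13 after the group-mean switch. With FPKM these medians were -0.16, -0.25 and 0.19, and with the total count -0.20, -0.27 and 0.19. The median before the switch was -0.33 with DESeq2 size factors, -0.35 with at least 10 reads in each library and -0.36 with a pseudocount of 0.25 CPM. Leaving out either resistant library gave medians of -0.27 to -0.22, a switch at 52.2 to 58.4 Mb, -0.34 to -0.34 before and 0.15 to 0.21 after. The cause of these moves was not tested. No paired analysis was possible because the groups share only 1 replicate number and no test was run.

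One parental library carries every library ratio, and leaving it out gives no ratio. Group means carry no error here, and the ratio of a single gene has no error beyond counting.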
